A study of Homo sapiens with 6 samples.

Results

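Translesion and alternative DNA polymerases were examined as 9 genes: the ubiquitin ligase gene RAD18, the inserter polymerase genes POLH, POLK, POLI and REV1, the polymerase zeta subunit genes REV3L and MAD2L2, the end-joining polymerase gene POLQ and the repriming enzyme gene PRIMPOL. The genes were chosen by name, out of 19675 protein-coding RefSeq genes, and their peaks were those whose midpoint lay in the gene or within 1 kb of it on GRCh38. They held 25, 28 and 25 of the 65865, 77194 and 64511 peaks of DMSO replicates 1, 2 and 3, and 27, 33 and 29 of the 79807, 84510 and 70121 peaks of APH replicates 1, 2 and 3. After overlapping peaks of all samples were merged, these made 35 of 102784 regions.

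The cells were RKO, a colon carcinoma line. Chromatin accessibility was measured by ATAC-seq, in which a transposase inserts sequencing adapters into open DNA. The APH group (n = 3) received aphidicolin, an inhibitor of the replicative DNA polymerases, at 0.2 µM for 16 h to produce low replication stress, and the DMSO group (n = 3) carries only the name of the solvent in its labels. The samples came from 3 independent experiments, and the depth of the libraries is unknown. The cell type label was checked by peaks at the starts of marker genes. Of 9 intestinal epithelial genes, EPCAM, KRT8 and CDX2 had one in all 6 samples, KRT18 in 5 and KRT20 in 2, and CDH1, VIL1, LGALS4 and CDH17 in 0. Of genes of fibroblasts, blood cells and endothelium, COL1A1, COL1A2 and CD68 had one in all 6 and PDGFRB in 1, and DCN, PTPRC, CD3E, CDH5 and VWF in 0. PECAM1 was not analysed here.

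Replicative polymerases stall at damaged bases, and translesion polymerases, with a roomier active site and no proofreading, copy past the lesion at the price of errors. RAD18 attaches ubiquitin to the sliding clamp PCNA, which favours the exchange of polymerases at the stalled fork. PRIMPOL instead restarts synthesis beyond the block, and POLQ joins broken ends through short matching sequences.

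Each peak carries a signal, the mean coverage over the peak, which is on the same scale for long and short peaks and, as far as the values show, was not multiplied by a factor for library size. All 9 genes had a peak in all 6 samples at a RefSeq transcript start, and this start region held less signal on average in APH than in DMSO in 9 of 9 genes. In 5 of them, RAD18, POLK, POLI, REV1 and POLQ, the 3 APH values all lay below the 3 DMSO values, while this was so in 42.2% of the 10010 start regions of protein-coding genes that each sample had a peak in. The median log2 difference of the 9 start regions was -0.32, beside -0.27 for all 10010, and in 0 of 9 were all APH values above all DMSO values, against 0.549%. Of 13 regions of the 9 genes that hold no transcript start, 7 had a negative log2 difference (APH minus DMSO). In 2 of them, PRIMPOL at -1.07 kb and REV3L at 121.9 kb, all APH values were below all DMSO values, against 7.44% of 40140 such regions. In 0 of 13 were all APH values above all DMSO values, against 5.12%. Such regions can still lie near a start, as did those of PRIMPOL at -1.07 kb and RAD18 at 1.04 kb. The median of those 13 log2 differences was -0.07 and that of all 40140 was 0.00 (-0.0048). A lower value in APH by limma was found in 93.4% of all start regions and in 50.8% of all other regions.

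**Figure D1:**
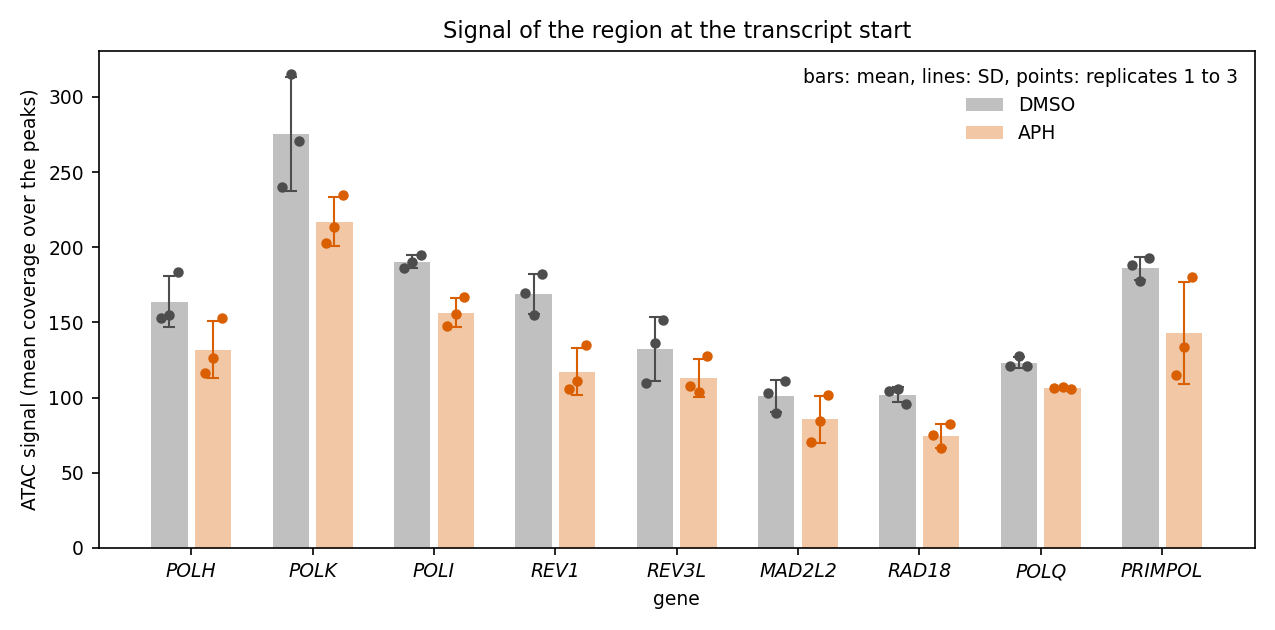
ATAC signal (mean coverage over the peaks, no unit) of the region at the transcript start of each gene, with bars for the group mean, lines for the SD and points for the 3 replicates of DMSO (grey) and APH (orange). POLK has the highest DMSO mean (275.2) and MAD2L2 the lowest (101.2), and the APH mean is below the DMSO mean in all 9 genes.

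Tested region by region with limma on the 50150 regions in which each of the 6 samples had a peak, 0 of the 22 tested regions of the 9 genes passed an adjusted p of 0.05, as did 0 of all regions (0% higher and 0% lower). The replicate numbers were not taken to pair the samples. With a block for these numbers, the start regions of REV1, PRIMPOL, POLK, RAD18, POLH and POLI passed, each lower in APH (limma adjusted p from 0.0031 to 0.048). Over all regions, 5583 were then called lower and 1021 higher. Without the block, at an unadjusted p under 0.05, 6 of the 22, all of them start regions, were lower in APH and 0 higher. Over all regions, 5062 were lower and 1235 higher. Start regions were 9 of the 22 but 10010 of the 50150, so the counts over all regions are no measure for start regions. The share called among all start regions, with or without the block, is not given here. Without 1 replicate the counts over all regions ran from 2068 to 5031 lower and from 420 to 3828 higher. They were 4925 and 3091 after centring on the median, and 2307 and 2963 under quantile normalization. There, the start regions of REV1 and RAD18 and the REV3L region at 121.9 kb were under 0.05, each lower (limma unadjusted p = 0.026, 0.033 and 0.047). Quantile normalization left the 9 start regions lower in APH but by less, at -0.39 (RAD18), -0.37 (REV1), -0.22 (PRIMPOL), -0.17 (MAD2L2), -0.14 (POLH), -0.11 (POLK), -0.09 (POLI), -0.08 (REV3L) and -0.07 (POLQ). Of all regions, 51.3% were lower in APH in that setting, and the share among all start regions is not given here. The same test on the gene start value, the length-weighted mean of the peaks within 1 kb of the gene's 5′ end, called 261 of 10813 genes lower (2.41%) and 0 higher. Of the 9 genes, 7 could be tested in this way and 0 passed, with adjusted p from 0.052 to 0.25, while 5 had an unadjusted p under 0.05 and a lower value, as did 4366 of the 10813 genes (40.4%), against 51 with a higher one. Without 1 replicate these counts over all genes ran from 2292 to 4628 lower and from 20 to 95 higher. They were 286 and 569 after centring on the median, and 405 and 518 under quantile normalization. Of the 7 genes, only RAD18 was then under 0.05, by quantile normalization (limma unadjusted p = 0.042). The count of 261 rested on single libraries, being 2044 without APH replicate 3, 0 without APH replicate 1, APH replicate 2 or DMSO replicate 1, and 1 without DMSO replicate 2 or DMSO replicate 3. Without APH replicate 3, RAD18, REV1, PRIMPOL and POLH passed (limma adjusted p = 0.028, 0.036, 0.031 and 0.046). With the replicate block, these genes and POLI passed (limma adjusted p from 0.0075 to 0.018). Of all 10813 genes, 5692 were then called lower and 64 higher. The median gene start value differed by -0.27 (log2), and under scaling to equal medians or quantiles the count of 261 became 0. Relative to that median the start values of RAD18, PRIMPOL, REV1, POLH and POLI lay at -0.26, -0.15, -0.15, -0.05 and -0.01, and those of REV3L and POLQ at 0.05 and 0.06, so that the direction of the last pair turned when the samples were scaled to each other.

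RAD18, the ubiquitin ligase that marks PCNA, is a gene of 86.4 kb on the minus strand of chromosome 3. Its start region, chr3:8963023-8963724, had signals of 104.1, 105.9 and 96.0 in DMSO replicates 1 to 3 and of 74.9, 66.5 and 82.1 in APH replicates 1 to 3. All APH values were below all DMSO values, and the APH mean was 73.1% of the DMSO mean (102.0 ± 5.27 against 74.5 ± 7.81, SD, n = 3 each). The log2 difference was -0.45 ± 0.17 (SE, limma adjusted p = 0.31). By gene start value, which in APH replicate 1 also took in a peak centred 996 bp into the gene, it was -0.53 ± 0.14 (limma adjusted p = 0.052), lower than in all but 3.65% of genes. The next region, centred 1.04 kb into the gene, had 46.5, 48.3 and 37.1 in DMSO and 39.4, 49.8 and 42.8 in APH, which overlapped, with a log2 difference of 0.00 ± 0.21. A region 26.2 kb into the gene likewise overlapped, with means of 49.1 ± 8.28 in DMSO and 46.7 ± 8.06 in APH. The inner region at 1.04 kb therefore had 0.43 ± 0.04 of the signal of the start region in DMSO and 0.60 ± 0.13 in APH, without overlap of the groups (exact two-sided permutation p = 0.1, the smallest that 3 against 3 samples can give). Of 13 such ratios of another region to the start region in the 9 genes, 2 had all APH values above all DMSO values, this one and one of REV1, 0 had all below, and 11 overlapped (p from 0.2 to 0.9), beside 15.7% with all APH values above and 1.42% with all below among 12491 such ratios of all genes.

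The RAD18 promoter window is shown because its gene start value had the largest difference of the 7 genes tested. In this and the following windows, from 250 bases before to 50 after a transcript start (RefSeq, GRCh38.p14), capitals mark the letters GCGCNNGCG (NRF1), GGGCGG (SP/KLF), CCGGAAG (ETS), CCAAT (NF-Y), TGACGTCA (CRE), CACGTG (E-box), ATGGCGGC (YY1), ACTACAA (part of the ZNF143 motif), TTTGAA (CHR) and TATAAA (TBP), searched on both strands, where matches may overlap. The sequence lies on the minus strand at chr3:8963423-8963722.
RAD18: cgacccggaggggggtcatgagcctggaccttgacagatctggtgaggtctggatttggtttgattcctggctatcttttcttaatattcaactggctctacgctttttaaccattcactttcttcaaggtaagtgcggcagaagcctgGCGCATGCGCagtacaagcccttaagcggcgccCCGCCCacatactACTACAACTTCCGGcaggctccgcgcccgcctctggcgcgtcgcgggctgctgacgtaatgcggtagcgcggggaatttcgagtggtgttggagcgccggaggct
It held ACTACAA directly followed by an ETS match on the other strand, and its GC content of 57.7% was below the median of 62.3% over 22078 promoter windows of protein-coding genes. Peaks covered 300, 278 and 238 of its 300 bases in DMSO and 211, 209 and 213 in APH, so the upstream edge of the called peak lay nearer to the start in every APH sample.

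POLH encodes polymerase eta, which copies accurately past ultraviolet-induced thymine dimers. Its start region, chr6:43575358-43576483, had signals of 152.9, 155.0 and 183.5 in DMSO and of 116.6, 126.0 and 153.0 in APH. APH replicate 3 lay just above DMSO replicate 1, so the groups overlapped by a small margin, and the log2 difference was -0.32 ± 0.15 (limma adjusted p = 0.40). The region covers the start of XPO5, a nuclear export receptor gene transcribed from the opposite strand 147 bp away, and its signal cannot be divided between them. A region 32.3 kb into the gene had 63.3, 92.8 and 50.6 in DMSO and 60.7, 62.5 and 47.2 in APH. DMSO replicate 2 was the highest there, and the log2 difference of -0.24 ± 0.23 became -0.01 without it, -0.12 without APH replicate 3 and -0.44 without DMSO replicate 3.

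POLK encodes polymerase kappa, which bypasses bulky adducts in the minor groove and also extends mismatched ends. Its start region had the highest signal of the 9, with 239.8, 315.0 and 270.7 in DMSO and 203.0, 213.1 and 234.7 in APH, and stood above 83.9% of all start regions. The groups did not overlap, and the log2 difference was -0.34 ± 0.14 (limma adjusted p = 0.34). This region, chr5:75511246-75512188, sits at the transcript start 1117 bp inside the gene record and 90 bp from the start of CERT1, a ceramide transfer protein gene on the opposite strand. Peak midpoints fell 943 and 957 bp from the 5′ end of the record in DMSO replicates 3 and 1, inside the 1 kb limit of a start peak, and 1006 to 1015 bp from it in the other samples, outside the limit. POLK was therefore not tested by the gene's 5′ end; with transcript starts in its place, a choice made after seeing the data that called 435 of 11370 genes lower (3.83%), 1 higher (0.0088%) and 0 of the 9, the log2 difference was -0.43 ± 0.12 (limma adjusted p = 0.053). In that value APH replicate 3 also held a second, weaker peak of 72.6. A broad region 55.7 kb into the gene (1120 to 1388 bp of peaks in each sample) had nearly level signals of 78.9, 87.5 and 84.0 in DMSO and 76.7, 80.7 and 75.7 in APH (log2 difference -0.10 ± 0.17).

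POLI encodes polymerase iota, an error-prone inserter. The start region, chr18:54269163-54270284, had signals of 186.1, 190.2 and 194.7 in DMSO and 147.5, 155.3 and 166.6 in APH. Replicates lay close together and the groups did not overlap, with an APH mean at 82.2% of the DMSO mean and a log2 difference of -0.28 ± 0.13 (limma adjusted p = 0.38). The start of the noncoding RNA gene LOC124904307, on the opposite strand, lies 331 bp away. The other region of the gene, 15.7 kb from the 5′ end, was weak in all samples, at 20.4, 32.6 and 21.4 in DMSO and 33.9, 42.7 and 23.4 in APH. Its means of 24.8 ± 6.80 and 33.3 ± 9.68 overlapped, and its log2 difference of 0.40 ± 0.24 was the highest of the 22 regions (limma adjusted p = 0.52), though it was 0.21 without APH replicate 2, 0.63 without APH replicate 3 and 0.61 without DMSO replicate 2. The log2 ratio of start to body value was 3.19, 2.54 and 3.19 in DMSO and 2.12, 1.86 and 2.83 in APH, a difference of -0.70 ± 0.28 (limma adjusted p = 0.43) beside a median of -0.17 over the 6216 genes with both values.

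REV1 encodes a deoxycytidyl transferase that also serves as the scaffold on which the other inserters and polymerase zeta meet. Its start region, chr2:99489928-99490732, had signals of 169.4, 155.0 and 182.0 in DMSO and 105.9, 110.8 and 135.2 in APH. The groups did not overlap, the APH mean was 69.5% of the DMSO mean, and the log2 difference of -0.53 ± 0.15 was the lowest of the 22 regions (limma adjusted p = 0.29). Downstream of it lay a weaker region centred 697 bp from the 5′ end, with 87.9, 74.9 and 97.8 in DMSO, no peak in APH replicate 1, and 53.3 and 65.0 in APH replicates 2 and 3. Both APH values there lay below the 3 DMSO values. The region centred 1.48 kb from the 5′ end differed from these, with 61.1, 71.1 and 89.3 in DMSO and 84.4, 79.2 and 76.4 in APH. The groups overlapped there and its log2 difference was 0.13 ± 0.19. It had 0.44 ± 0.07 of the signal of the start region in DMSO and 0.69 ± 0.12 in APH, without overlap (exact two-sided permutation p = 0.1, again the smallest possible). The log2 ratio of start to body value over the whole gene was 1.85, 1.54 and 1.17 in DMSO and 0.33, 0.99 and 1.17 in APH, a difference of -0.69 ± 0.26 (limma adjusted p = 0.41). In APH replicate 1 the body value was that of the region at 1.48 kb alone (84.4). The other samples also had a weaker body peak, such as that at 41.45 kb in DMSO replicate 1 (22.25), which lowered their body value. Without APH replicate 1 the difference in the start to body ratio was -0.44. In 0 of the 8 genes with both values did this ratio pass, as in all genes (0%), and 2 of the 8, POLI and REV1, had an unadjusted p under 0.05, as did 616 lower and 71 higher of the 6216 genes. Leaving out 1 replicate gave 275 (APH replicate 1) to 1154 (APH replicate 3) lower and 42 to 82 higher. The median difference over these genes then ran from -0.25 to -0.10.

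The REV1 window is given as the most GC-rich of those of the 9 genes (80.7%) and lies on the minus strand at chr2:99489968-99490267.
REV1: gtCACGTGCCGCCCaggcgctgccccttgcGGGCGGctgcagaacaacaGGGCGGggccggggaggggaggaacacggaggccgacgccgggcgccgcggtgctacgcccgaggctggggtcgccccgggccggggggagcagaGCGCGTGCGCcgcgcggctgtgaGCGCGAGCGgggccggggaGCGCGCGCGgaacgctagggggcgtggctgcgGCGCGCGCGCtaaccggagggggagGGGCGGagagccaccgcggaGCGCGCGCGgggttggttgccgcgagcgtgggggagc
It held 7 matches to GCGCNNGCG and 4 to GGGCGG, some of them overlapping.

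**Figure D2:**
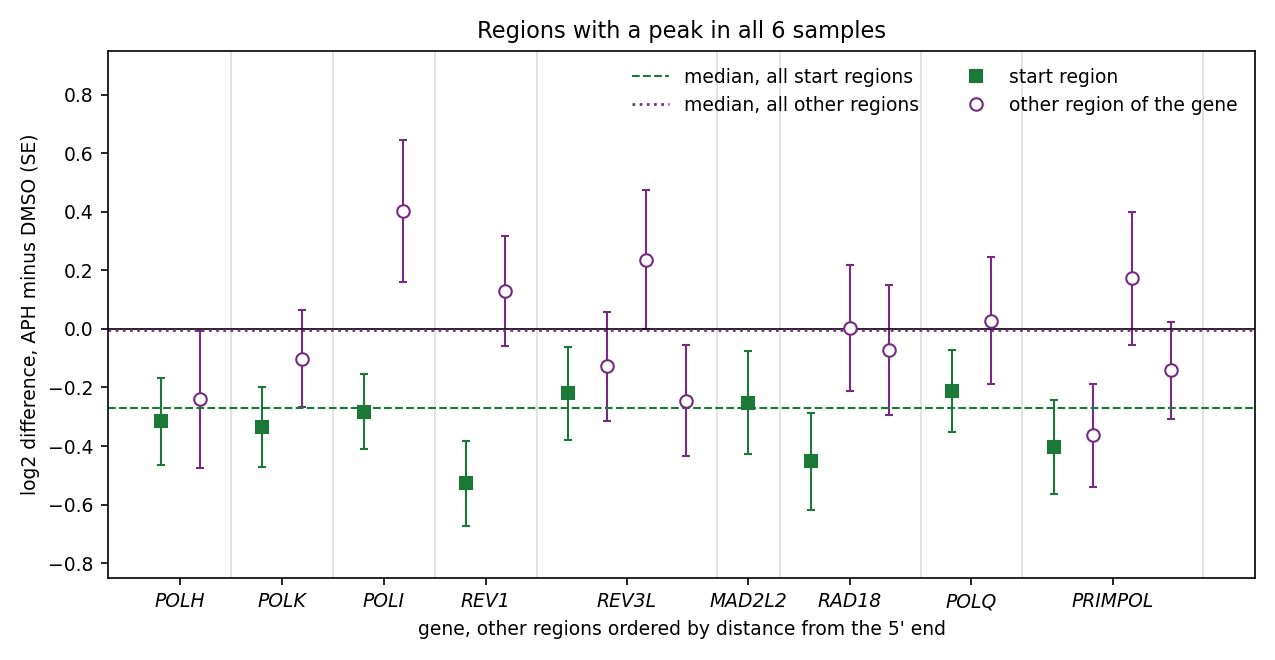
Log2 difference of ATAC signal, APH minus DMSO (limma, n = 3 each), for the 22 regions that could be tested, with lines for the SE, filled squares for start regions and open circles for the other regions of each gene. The squares lie from -0.53 (REV1) to -0.21 (POLQ) about the median of all start regions (-0.27, dashed), and the circles from -0.36 to 0.40 about the median of all other regions (dotted).

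REV3L encodes the catalytic subunit of polymerase zeta, the main extender after an inserter has placed a base. It is the longest of the 9 genes, at 184.7 kb, and had 6 regions, of which 4 had a peak in every sample. The start region, chr6:111482723-111484344, had signals of 109.5, 136.1 and 151.8 in DMSO and 107.8, 103.8 and 127.3 in APH. DMSO replicate 1 lay among the APH values, and the log2 difference was -0.22 ± 0.16 (limma adjusted p = 0.60), with -0.35 without that sample and -0.12 without DMSO replicate 3. It holds both transcript starts of REV3L, 493 bp apart, and the start of the antisense gene TRAF3IP2-AS1. In DMSO replicate 2 and APH replicates 1 and 2 the region was called as a strong peak at the upstream transcript start (153.1, 118.3 and 114.0) and a weaker one at the downstream start (79.8, 79.3 and 76.7). In DMSO replicates 1 and 3 and APH replicate 3 it was called as 1 peak of 1612, 1454 and 1367 bp, so the signals of these samples are not means over the same bases. A region centred 1.45 kb from the 5′ end had 72.7, 77.3 and 95.4 in DMSO and 67.3, 69.6 and 87.4 in APH, which overlapped. Further in, a region at 56.1 kb had 59.4, 89.8 and 49.7 in DMSO and 75.3, 97.1 and 59.7 in APH, where replicate 2 was the highest in both groups. A weak region at 121.9 kb had 27.2, 34.2 and 27.9 in DMSO and 25.8, 26.1 and 22.8 in APH, without overlap, and a log2 difference of -0.25 ± 0.19 (limma adjusted p = 0.63).

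MAD2L2, also called REV7, is the small subunit that links REV3L to REV1 and also belongs to the shieldin complex at broken ends. It had a single region in all samples, chr1:11680555-11681872, with signals of 103.0, 90.0 and 110.8 in DMSO and 70.2, 84.6 and 101.7 in APH. The groups overlapped, and the log2 difference was -0.25 ± 0.18 (limma adjusted p = 0.59), with -0.12 without APH replicate 1 and -0.38 without APH replicate 3. The region sits on the transcript start 10682 bp inside the gene record. No peak of any sample covered a base of the window at the upstream start. The 5′ end of the gene record lies 120 bp from the start of DRAXIN, a secreted axon guidance factor gene on the opposite strand. Both windows are shown, the upstream one at chr1:11691510-11691809 and the downstream one at chr1:11681099-11681398, each on the minus strand.
MAD2L2 upstream start: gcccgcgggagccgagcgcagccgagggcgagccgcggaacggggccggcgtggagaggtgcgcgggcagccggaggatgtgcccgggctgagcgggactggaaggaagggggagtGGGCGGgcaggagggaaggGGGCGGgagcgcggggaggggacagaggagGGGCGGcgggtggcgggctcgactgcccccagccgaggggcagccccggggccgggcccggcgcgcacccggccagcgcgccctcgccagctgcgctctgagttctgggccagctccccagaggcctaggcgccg
MAD2L2 downstream start: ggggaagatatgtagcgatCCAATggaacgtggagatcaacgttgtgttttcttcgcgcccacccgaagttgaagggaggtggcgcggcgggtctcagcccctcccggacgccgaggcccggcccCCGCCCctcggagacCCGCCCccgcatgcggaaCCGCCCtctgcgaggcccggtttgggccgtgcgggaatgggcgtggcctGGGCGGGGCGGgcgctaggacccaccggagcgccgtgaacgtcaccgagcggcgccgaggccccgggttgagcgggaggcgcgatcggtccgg
The window without a peak had the higher GC content (80.0% against 72.3%). GGGCGG was found in both, 3 and 5 times, and CCAAT in the downstream window alone of the 11 windows of these genes.

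POLQ encodes polymerase theta, a helicase and polymerase that joins resected ends. Its start region, chr3:121545196-121546457, had signals of 121.1, 127.6 and 121.1 in DMSO and of 106.6, 106.8 and 105.6 in APH. The spread within groups was the smallest of the 9 genes (123.3 ± 3.77 against 106.3 ± 0.63), and the groups did not overlap. The log2 difference was nevertheless the smallest in size of the 9 start regions, -0.21 ± 0.14 (limma adjusted p = 0.56). As for REV3L, DMSO replicate 2 and APH replicates 1 and 2 had separate peaks, of 179.7, 130.0 and 145.5 at the start and 58.8, 56.9 and 49.9 downstream of it, where the other samples had a single wide peak. The samples with a split start were in both genes those with the most peaks in total and the largest share of peaks under 1 kb (97.5%, 97.2% and 97.8%, against 94.6%, 94.8% and 95.5% in DMSO replicates 1 and 3 and APH replicate 3). By the strongest start peak alone, the log2 difference of the gene start value was -0.13 in POLQ and -0.19 in REV3L, against -0.21 and -0.22 with all start peaks. In the body, a region 63.1 kb from the start had 31.4, 40.9 and 41.8 in DMSO and 44.5, 35.3 and 36.3 in APH, with a log2 difference of 0.03 ± 0.22.

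The POLQ window is shown as the least GC-rich of the 9 genes (50.3%, with 12 CpG beside a median of 21 over all windows) and lies on the minus strand at chr3:121545939-121546238.
POLQ: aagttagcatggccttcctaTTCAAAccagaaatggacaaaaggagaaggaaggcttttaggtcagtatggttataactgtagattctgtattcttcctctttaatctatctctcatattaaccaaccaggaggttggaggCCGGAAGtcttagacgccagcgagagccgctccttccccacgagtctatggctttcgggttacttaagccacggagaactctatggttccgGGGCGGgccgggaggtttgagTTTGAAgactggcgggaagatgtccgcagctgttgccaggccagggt
It held 2 matches to TTTGAA, on opposite strands, and 300 of its 300 bases were covered by peaks in each sample.

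**Figure D3:**
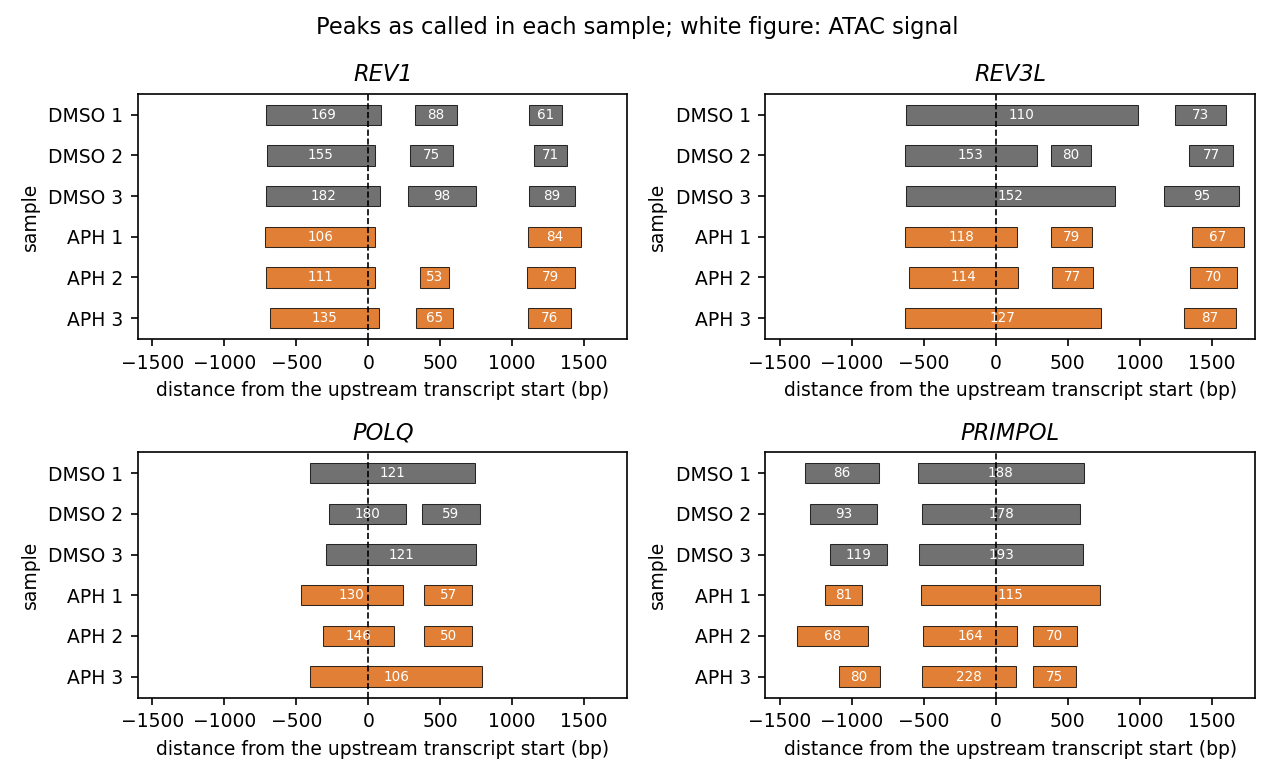
Extent of the peaks called in each sample around the start of REV1, REV3L, POLQ and PRIMPOL, as distance in bp from the upstream transcript start in the direction of transcription (dashed line at the start), with the ATAC signal of each peak in white, DMSO in grey and APH in orange. REV1 lacks its middle peak in APH replicate 1, REV3L and POLQ are split in DMSO replicate 2 and APH replicates 1 and 2, and PRIMPOL is split in APH replicates 2 and 3.

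PRIMPOL encodes a primase and polymerase that starts new chains ahead of a stalled fork. Its start region, chr4:184649197-184650466, had signals of 187.9, 177.6 and 192.5 in DMSO and 114.7, 133.7 and 180.2 in APH. The APH values were the most spread of the 9 genes (142.8 ± 33.7), APH replicate 3 lay within the DMSO range, and the log2 difference was -0.40 ± 0.16 (limma adjusted p = 0.33), or -0.26 without APH replicate 1. APH replicates 2 and 3 had this region as a pair of peaks, of 164.3 and 228.5 across the start and 69.8 and 75.2 downstream, and the 4 other samples as 1 peak of 1103 to 1246 bp. By the strongest start peak alone the log2 difference of the gene start value was -0.19, against -0.42 with all start peaks. Upstream of it, a region centred at -1.07 kb from the 5′ end had 85.6, 93.3 and 118.7 in DMSO and 80.9, 68.2 and 80.0 in APH, without overlap (log2 difference -0.36 ± 0.18, limma adjusted p = 0.41). Its midpoints in DMSO replicate 3 and APH replicate 3 lay at -953 and -950 bp from that end, within the 1 kb that made a peak a member, and those of the other samples at -1058 to -1134 bp. In those 2 samples this peak therefore also entered the gene start value, which was 173.5 and 157.2 there, below the 192.5 and 180.2 of the start region, and in which the groups did not overlap. With a start window of 500 bp, which leaves this peak out, the log2 difference was -0.40 (limma adjusted p = 0.092).

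The PRIMPOL region with the highest mean coverage was not at its start. A region 38.9 kb into the gene, chr4:184688386-184688895, had signals of 208.5, 295.1 and 186.0 in DMSO and of 200.2, 231.7 and 183.6 in APH. It stood above 96.5% of all regions that hold no transcript start. The groups overlapped, with means of 229.9 ± 57.6 and 205.2 ± 24.4 and a log2 difference of -0.14 ± 0.16 (limma adjusted p = 0.77). Relative to the start region it had 1.11, 1.66 and 0.97 times the signal in DMSO and 1.75, 1.73 and 1.02 times in APH, so that its mean coverage exceeded that of the start region in 5 of 6 samples. By coverage times length in kb the start region was the larger, with means of 211.1 against 111.6 in DMSO and 148.6 against 95.9 in APH, and in APH replicate 3 the peak across the start (228.5) also had the higher mean coverage. In the other genes the ratio of an inner to the start region was below 1 in all 6 samples, the highest being 0.94 for REV3L at 56.1 kb in APH replicate 2. No other RefSeq gene covers the region. A further region at 14.9 kb was weak, with means of 35.3 ± 7.26 in DMSO and 39.6 ± 6.22 in APH.

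**Figure D4:**
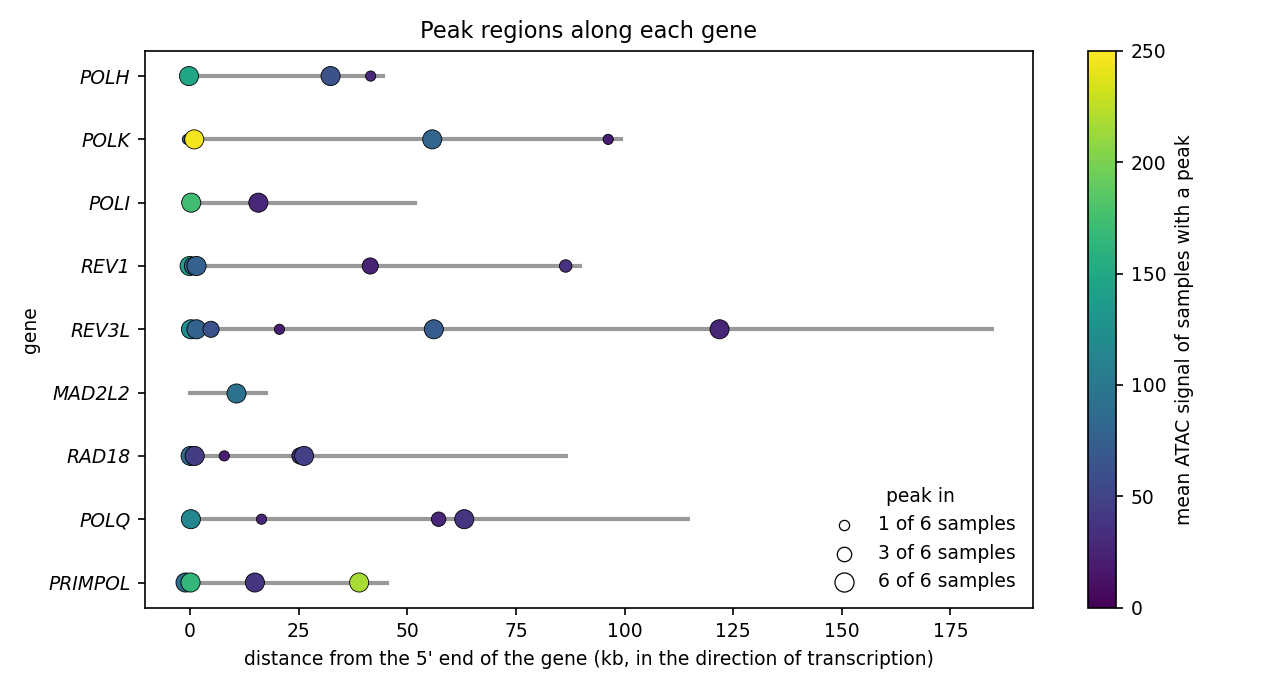
Positions of the 35 peak regions of the 9 genes as distance from the 5′ end of the gene in kb, with a grey line for the length of the gene, circle size for the number of samples with a peak and colour for the mean ATAC signal of those samples. The region with the highest mean signal lies at or near the 5′ end except in MAD2L2 (10.6 kb) and PRIMPOL (38.9 kb).

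Ordered by signal of the start region in DMSO, POLK (275.2 ± 37.8) stood above POLI (190.3 ± 4.26), and POLI, PRIMPOL (186.0 ± 7.64), REV1 (168.8 ± 13.5) and POLH (163.8 ± 17.1) each overlapped with the next. REV3L (132.5 ± 21.3) and POLQ (123.3 ± 3.77) overlapped with each other and lay below POLH, and RAD18 (102.0 ± 5.27) and MAD2L2 (101.2 ± 10.5) overlapped with each other below POLQ, though the highest MAD2L2 value (110.8) passed the lowest of REV3L (109.5). The genes most like POLI, the highest of the 7 with a tested gene start value, were ELMOD2, PIGN and RELCH, with root mean square differences of 0.04, 0.04 and 0.04 in log2 start value over 6 samples. Those of PIGN and RELCH were identical (0.0422834), and genes that share a start peak with each other were not left out. For RAD18, the lowest, they were UMPS, TNRC18 and PPP5C (0.08, 0.09 and 0.11).

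In 7 of the 9 genes the windows at the starts lay above the median GC content of all windows, and those of RAD18 and POLQ lay below it. The median over the 11 windows of the 9 genes was 74.0%, beside 62.3% over 22078 windows, and the median number of CpG was 37 beside 21. GGGCGG occurred in 10 of 11 windows, POLI being the exception, and in 56.3% of all windows. GCGCNNGCG occurred in 7 of 11, those of RAD18, POLH, POLK, POLI, REV1 and both of REV3L, and in 21.4% of all. ACTACAA was found in RAD18 and POLK and in 2.84% of all windows, CCAAT in 1 of 11 and in 34.7% of all, CCGGAAG in RAD18, POLI and POLQ and in 12.8%, CACGTG in POLI and REV1 and in 8.32%, TTTGAA in POLQ and PRIMPOL and in 12.5%, TATAAA in REV3L and in 9.50%, and TGACGTCA and ATGGCGGC in 0 of 11 and in 2.25% and 3.92%.

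The number of peaks per gene was compared with limma over 9713 genes with a mean of at least 2 peaks, of which 61 were higher (0.628%) and 16 lower (0.165%) in APH. In 0 of the 8 genes tested did it pass (adjusted p from 0.60 to 1), and 0 had an unadjusted p under 0.05, beside 492 higher and 52 lower of the 9713 genes. POLI had 2 peaks in all 6 samples and MAD2L2 had 1, whereas POLQ had 2, 4 and 2 in DMSO and 4, 5 and 2 in APH. Per 10000 peaks of a sample, the 9 genes held 3.80, 3.63 and 3.88 in DMSO and 3.38, 3.90 and 4.14 in APH. The groups overlapped in this measure, and in the total over the 9 genes. Without single libraries the counts over all genes that passed ran from 120 (DMSO replicate 1) to 260 (APH replicate 3) higher and from 40 to 57 lower, and per 10000 peaks they were 0 and 0. At an unadjusted p under 0.05, 343 genes were higher and 420 lower per 10000 peaks.

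Of 40 further genes of damage tolerance and of the partners of these polymerases, 36 had a start peak in all samples, and 0 of these passed the limma test of the gene start value in either direction, while 19 had an unadjusted p under 0.05 and a lower value (40.4% of all genes) and 1 a higher one (0.472%). A lower mean log2 value in APH was seen in 35 of the 36 (92.9% of all genes) and a higher one in 1, and the median difference was -0.29, near that of all genes (-0.27). Among the 11 tested genes that ubiquitinate PCNA or remove the mark, USP10, a deubiquitinase, was the lowest at -0.50 ± 0.19 (limma adjusted p = 0.083) and WDR48, the cofactor of USP1, the highest at -0.06 ± 0.25. Of 8 partners of the translesion polymerases, RPA1, which coats single-stranded DNA, was the lowest at -0.59 ± 0.21 (adjusted p = 0.078) and POLDIP2, a polymerase-binding protein, the highest at -0.20 ± 0.12. The 5 partners of MAD2L2 outside translesion synthesis ran from -0.47 ± 0.15 in CHAMP1 (adjusted p = 0.060) to -0.03 ± 0.13 in SHLD1, a shieldin subunit. Of 8 genes of theta-mediated end joining, the flap endonuclease gene FEN1 was the lowest at -0.44 ± 0.14 (adjusted p = 0.059) and the ligase gene LIG3 the highest at -0.15 ± 0.15.

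Among 4 tested genes of other alternative polymerases, POLN was the lowest, at -0.43 ± 0.12 (limma adjusted p = 0.052). POLB, the base excision repair polymerase gene, was the highest of the 36, with start values of 120.5, 118.3 and 104.8 in DMSO and 143.6, 130.0 and 140.1 in APH. All APH values lay above all DMSO values, and the log2 difference was 0.27 ± 0.12 (limma adjusted p = 0.11).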

How the data were processed

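Of each of the 6 ATAC-seq samples, the authors deposited a list of peaks with a signal, the mean of a coverage map in 32-nt bins over the peak. Per the labels, reads were aligned to hg38 with BWA 0.7.12 and peaks called with MACS2 2.1.0. Signal times the number of bins was whole, within the rounding at 6 significant digits (0.016 at most), in 97.1% to 97.2% of the peaks under 1000 bp and under a signal of 1000, so the values show no scale factor. Sampling reads to an equal number would also leave them whole and was not tested, and the depth is unknown.

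Genes came from RefSeq GRCh38.p14. Exons were not used here. Peaks overlapping by 1 bp were merged into regions, valued by the length-weighted mean of their peaks, and a start region holds a transcript start. Regions, gene start values, peak numbers and start to body ratios were compared with limma 3.58.1 in R 4.3.3 on log2(value + 1), over whole tables, with Benjamini-Hochberg adjustment, and single values with two-sided exact permutation tests (scipy 1.17.1). Transcript starts, the ratio fit, the region ratios over all genes, the motifs and the widths of split starts were chosen after seeing the data. The members and lists were chosen with earlier results of these data known. Named were all 9 genes, the highest and lowest of each further list, the 3 genes most like 2 of the members in start value, and genes starting within 1 kb of a member. A neighbouring gene and a marker are not reported here.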

Additional observations from a re-analysis of the deposited data

How the results depend on the processing

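The member genes kept their direction and their side of the threshold in most settings, but the size of the differences moved. By the strongest start peak, the start value of PRIMPOL went from -0.42 to -0.19 and that of POLQ from -0.21 to -0.13, and by summed signal times length that of REV3L from -0.22 to -0.52 and that of REV1 from -0.42 to -0.74. Centring on the median left start values between -0.26 and 0.061. Over all genes, 261 gene start values were lower and 0 higher in APH, and these counts became 435 and 1 with transcript starts (chosen after seeing the data), 767 and 8 with a start window of 2 kb, 2971 and 12 for summed signal times length, and 0 lower with a window of 500 bp, the strongest start peak, centring on the median or quantile normalization. With summed signal times length REV1, POLI and PRIMPOL passed (limma adjusted p = 0.028, 0.037 and 0.047). The cause was not tested. Leaving out 1 replicate gave 0 to 2044 lower and 0 to 20 higher, the highest without APH replicate 3. Regions called lower were 0, 1 after centring and 0 to 3 without 1 replicate (3 without DMSO replicate 2). Gene body values called lower were 1, 0 with transcript starts or quantile normalization, and 0 without any 1 replicate, with 0 to 1 higher. Peak numbers called higher and lower were 61 and 16, then 40 and 37 for peaks at or above the median value, 44 and 35 with an equal number of peaks, 0 and 0 per 10000 peaks or in genes averaging 5 or more peaks, and 120 to 260 and 40 to 57 without 1 replicate. The start to body ratio gave 0 lower, or 0 to 3 without 1 replicate.

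Directions turned for some uncalled values. Centring and quantile normalization gave the start value of REV3L 0.052 and 0.060 and that of POLQ 0.061 and 0.056. Quantile normalization gave the region of RAD18 at 1.0 kb -0.056, of POLQ at 63.1 kb -0.035 and of PRIMPOL at 38.9 kb 0.079. The peak number of REV3L was -0.074 with an equal number of peaks and that of RAD18 -0.013 per 10000 peaks. Without 1 replicate, log2 differences ran from -0.11 to 0.077 for RAD18 at 1.0 kb, -0.21 to 0.042 for RAD18 at 26.2 kb, -0.10 to 0.10 for POLQ at 63.1 kb, 0.00 (-0.0049) to 0.28 for PRIMPOL at 14.9 kb, -0.28 to 0.052 for PRIMPOL at 38.9 kb, -0.054 to 0.24 for the peak number of RAD18, -0.37 to 0.13 for that of REV1, and -0.21 to 0.35 and -0.50 to 0.00 (0.0041) for the start to body ratio of POLH and REV3L. Without a turn of direction they ran from 0.00 (0.0045) to 0.27 for REV1 at 1.5 kb, -0.24 to -0.01 for REV3L at 1.4 kb, 0.054 to 0.475 for REV3L at 56.1 kb, -0.30 to -0.14 for REV3L at 121.9 kb and -0.46 to -0.23 for PRIMPOL at -1.1 kb.

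Samples of the 2 groups share replicate numbers. Deviations from the group means over all regions correlated by -0.01, 0.48 and 0.52 for numbers 1, 2 and 3. DMSO replicates 2 and 3 correlated best with the same number in APH. DMSO replicate 1 correlated best with APH replicate 3 (0.13), and APH replicate 1 with DMSO replicate 2 (0.26). As number 1 did not match, the numbers were not taken to pair the samples, though these correlations do not exclude a pairing. With a replicate block, regions called lower and higher were 5583 and 1021 of 50150. Gene start values were 5692 and 64 of 10813, and start to body ratios 47 and 4 of 6216. Of the 9 genes, the start values of RAD18, REV1, PRIMPOL, POLH and POLI then passed (limma adjusted p = 0.0086, 0.0075, 0.0124, 0.0143 and 0.018), as did the start regions of REV1, PRIMPOL, POLK, RAD18, POLH and POLI (limma adjusted p from 0.0031 to 0.048), each lower in APH. No other call of the 9 genes changed under the block.

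Depth is unknown, so no counting error can be given, and a sample without a peak in a region has no value there.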

Other observations

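Several regions of the 9 genes had a peak in some samples only. A peak in exactly 1 sample was found in 6 regions, and all 6 were in APH samples, while 0 regions had a peak in a single DMSO sample. Over the whole genome, 19685 regions had a peak in exactly 1 sample, an APH sample in 13715 of them (69.7%) and a DMSO sample in 5970 (30.3%). They were regions of POLH at 41.5 kb, POLK at -0.6 kb and POLQ at 16.4 kb in APH replicate 2, of POLK at 96.2 kb in APH replicate 1, and of REV3L at 20.6 kb and RAD18 at 7.86 kb in APH replicate 3. Their signals were 27.7, 76.1, 27.2, 19.5, 19.1 and 20.8. The APH lists held 79807, 84510 and 70121 peaks and the DMSO lists 65865, 77194 and 64511, and the part of this number was not tested.

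Peaks in 2 to 5 samples were found in 7 further regions. In REV3L a region 4797 bp from the 5′ end had signals of 68.5, 65.5, 56.0 and 59.3 in DMSO replicates 1 and 2 and APH replicates 1 and 2 and no peak in replicate 3 of either group. In RAD18 a region at 25.3 kb had 25.6 and 32.2 in DMSO replicates 2 and 3, 36.3 and 32.4 in APH replicates 1 and 3, and no peak in the other samples.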
